A study of Homo sapiens with 17 samples.

Results

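The 10 genes examined here, CDK9, CCNT1, HEXIM1, LARP7, CDK12, CDK13, SUPT5H, SUPT6H, NELFB and POLR2A, control how RNA polymerase II moves from a paused start into productive elongation. They were taken by name, 10 of the 20037 protein-coding genes that the RefSeq table places on chromosomes 1 to 22, X and Y, and every summit from 10 kb upstream to 10 kb downstream of each gene was collected from all 17 deposited summit lists. The lists came from CUT&Tag, in which an antibody brings the Tn5 transposase to a chromatin mark or protein so that the DNA beside it is cut and sequenced, in H1, an established line of human pluripotent stem cells kept in mTeSR1 on Matrigel. For H3K4me1 and for H3K27ac there were 4 libraries of cells given a virus with an shRNA against HNRNPU (shHNRNPU#1 and shHNRNPU#2, repeats 1 and 2 of each) and 2 libraries of cells given a control shRNA against luciferase (shLUC), all selected with puromycin. POLIIS2P, by its name the polymerase phosphorylated on serine 2 of its tail repeat, had 1 shHNRNPU#1 library and 2 shLUC libraries, and HNRNPU itself was mapped in 2 libraries of untransfected cells without any shRNA. The HNRNPU protein left in the knockdown cells is not given in the sources used here, and the labels do not say that repeats were separate cultures, so the spread between them may be technical.

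Before any result, a conflict of names has to be stated. The 4 shLUC histone libraries carry one antibody in the sample title and the opposite one in the deposited list and its peak names. The values below follow the name in the list, and counts by sample title are given beside them. Over all genes, the shHNRNPU and shLUC groups did not overlap at 13.6% of genes for H3K4me1 and 12.1% for H3K27ac by the list name, against 58.2% and 55.0% by sample title. The shLUC lists named H3K4me1 held 179137 and 181357 summits and those named H3K27ac 62449 and 90914. The antibody list in the labels' protocol names neither H3K4me1 nor POLIIS2P.

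When RNA polymerase II begins a transcript it usually stops a short way into the gene, held by the negative elongation factor NELF together with the SPT5 protein. The kinase P-TEFb, made of CDK9 and cyclin T1, releases it by phosphorylating NELF, SPT5 and the polymerase tail, and a large part of P-TEFb is kept inactive in the 7SK ribonucleoprotein by HEXIM1 on an RNA that LARP7 stabilises. CDK12 and CDK13 phosphorylate the tail of the polymerase further into the gene, and SPT6 travels with it as a histone chaperone. H3K27ac marks active promoters and enhancers, H3K4me1 marks mainly enhancers and the shoulders of promoters, and serine 2 phosphorylation accumulates along transcribed genes.

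The stretches just before the start show how different these promoters are, and 5 of them are printed for the reasons given next. Whether the sequence bears on the summit values was not tested. LARP7 and CCNT1 had some of the strongest HNRNPU start summits, CDK12 the strongest H3K27ac, and NELFB the weakest HNRNPU. HEXIM1 held the most kinds of motif. The bases are RefSeq sequence (build GRCh38.p14, 5′ to 3′ along the gene, up to 250 bases ending at the base before the start). For LARP7 and NELFB only the bases between their start and that of the divergent neighbour are shown. Capitals mark matches, on either strand, to the short motifs searched, which the next paragraph spells out, and no matches of different motifs overlapped.
LARP7 (chr4:112636910-112637142, plus strand): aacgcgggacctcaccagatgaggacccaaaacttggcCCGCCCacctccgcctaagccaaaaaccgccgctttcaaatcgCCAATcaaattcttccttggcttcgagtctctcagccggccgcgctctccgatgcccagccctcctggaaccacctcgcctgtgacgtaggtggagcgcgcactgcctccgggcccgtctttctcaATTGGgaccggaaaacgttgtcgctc
CCNT1 (chr12:48716708-48716957, minus strand): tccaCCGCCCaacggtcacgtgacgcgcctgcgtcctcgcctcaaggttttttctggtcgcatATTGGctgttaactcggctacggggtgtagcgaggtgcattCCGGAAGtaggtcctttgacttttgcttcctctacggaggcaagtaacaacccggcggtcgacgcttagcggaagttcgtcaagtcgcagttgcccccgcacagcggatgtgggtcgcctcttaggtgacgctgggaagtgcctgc
CDK12 (chr17:39461236-39461485, plus strand): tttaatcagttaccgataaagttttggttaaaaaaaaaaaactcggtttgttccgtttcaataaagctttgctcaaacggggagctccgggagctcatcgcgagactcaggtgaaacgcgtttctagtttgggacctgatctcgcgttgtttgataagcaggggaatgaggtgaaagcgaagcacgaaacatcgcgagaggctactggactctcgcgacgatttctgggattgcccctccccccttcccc
HEXIM1 (chr17:45148225-45148474, plus strand): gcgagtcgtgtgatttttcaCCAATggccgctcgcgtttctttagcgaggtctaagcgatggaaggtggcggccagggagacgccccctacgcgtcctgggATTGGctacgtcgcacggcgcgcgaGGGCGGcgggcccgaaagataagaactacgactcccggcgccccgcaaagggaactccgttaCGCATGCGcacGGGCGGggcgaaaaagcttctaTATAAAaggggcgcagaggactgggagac
NELFB (chr9:137255123-137255326, plus strand): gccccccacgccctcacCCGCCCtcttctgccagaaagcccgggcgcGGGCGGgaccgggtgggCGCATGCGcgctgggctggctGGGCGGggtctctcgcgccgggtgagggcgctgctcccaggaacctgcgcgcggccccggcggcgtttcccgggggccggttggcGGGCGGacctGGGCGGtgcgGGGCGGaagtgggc

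In the whole 250 bases, GGGCGG was found before 9 of the 10 genes, against 42.6% of all 35116 RefSeq promoter windows, and CDK12 was the gene without it. CCAAT was found before CCNT1, HEXIM1 and LARP7 (32.0% of all windows) and CCGGAAG before CDK9 and CCNT1 (8.52%). TATAAA occurred before HEXIM1, beginning 29 bases before the start (10.7% of all windows). CGCATGCG occurred before HEXIM1 and NELFB (1.73%), TGACGTCA before LARP7 at a place beyond the printed stretch (1.65%), and ATGGCGGC before no member (1.3%). The G and C share ran from 48.8% at CDK12 to 82% at CDK9, with a median of 60.2% over the members and 58% over all windows. A match is a string of letters and not a measured binding site.

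As a check of the cells, 9 of 10 pluripotency markers had an entry in the gene table, and all 9 had a POLIIS2P summit inside the gene or within 2 kb of it in every list. POU5F1, LIN28A and DPPA4 had a median percentile of 99.41, 99.72 and 99.76 over the 3 lists, and SOX2 had 39.7. Of 10 markers of other cell types, 4 (PTPRC, ALB, INS and HBB) had no POLIIS2P summit in any list, while GFAP, TNNT2 and NEUROD1 had one in every list. The HNRNPU gene, the knockdown target, had its strongest POLIIS2P summit at percentile 99.69 in the shHNRNPU#1 library and at 99.51 and 99.49 in the shLUC libraries, a measure that does not report on its RNA or protein. The lists held 147145 to 214333 summits for H3K4me1, 40487 to 90914 for H3K27ac, 79949 to 87456 for POLIIS2P and 34649 to 35526 for HNRNPU. Read depth is unknown, so the number of summits in a list is the only sign of it.

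Each value is a percentile: the rank of a summit's score among all summits of its own list, with 100 the strongest, so that it shows standing within a library and not an amount. Where a region held several summits the highest percentile was taken, and 0 stands for no summit. In all, 911 summits lay in the 10 windows, 366 of H3K4me1, 251 of POLIIS2P, 243 of H3K27ac and 51 of HNRNPU. Their places differed by antibody. HNRNPU lay within 1000 bp of the start for 45.1% of its summits, H3K27ac for 22.6%, POLIIS2P for 14.7% and H3K4me1 for 6.56%, whereas the gene body held 53.4% of the POLIIS2P summits, 41.6% of H3K27ac, 38.0% of H3K4me1 and 25.5% of HNRNPU. Near the gene end the shares were 0.0% to 1.59%. These shares pool genes and lists, so genes with many summits weigh most, and shares over all genes are not given. CDK13, the longest gene, gave 65 of the 251 POLIIS2P summits, while CDK9 had none in its body in any list.

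**Figure D1:**
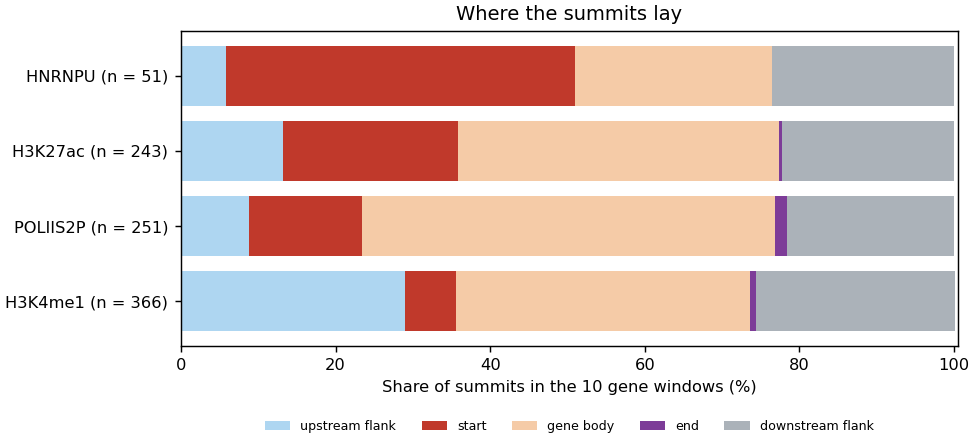
Share of summits (%) of each antibody by place in the 10 windows, over all lists of the antibody: upstream flank, within 1000 bp of the start, gene body, within 1000 bp of the end, and downstream flank. The start segment is widest for HNRNPU (45.1%) and narrowest for H3K4me1 (6.56%), and the gene body segment is widest for POLIIS2P (53.4%).

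HNRNPU occupied the start of every one of the 10 genes in both untransfected repeats, while 48.2% of the 15842 genes with a known strand did so. Among the 7822 genes with a POLIIS2P start summit in all 3 POLIIS2P lists, the share was 81.9%. All 10 members belonged to those 7822 genes, a class that held 49.4% of genes. The standing of the HNRNPU summits was ordinary: the median of the members' mean start percentile was 80.5, against 79.6 over the 7629 genes with a start summit in both lists.

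The members nonetheless differed widely from each other in HNRNPU. LARP7, which protects the 7SK RNA, had the highest HNRNPU start percentile in both repeats, 98.7 and 98.4. CDK13 followed with 95.6 and 95.2, and CCNT1, the cyclin partner of CDK9, with 92.0 and 94.5. POLR2A, the largest subunit of the polymerase, had 92.6 and 89.0. These 4 genes stood above the others in both repeats apart from CDK12, whose value in repeat 2 reached into their range.

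HEXIM1, the inhibitor of P-TEFb, had HNRNPU start percentiles of 82.7 and 82.0, and CDK9 had 78.6 and 66.2. CDK12 had 67.2 and 90.2, and SUPT5H, which encodes SPT5, had 65.0 and 80.9. For both of these genes the repeats lay farther apart than many neighbours in the order, so their place among the middle genes is not settled by 2 libraries. SUPT6H, which encodes SPT6, had 44.7 and 67.1, and NELFB, a subunit of NELF, was lowest in both with 37.4 and 32.4.

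The strongest HNRNPU start summit of a gene lay downstream of the start in both repeats for 6 genes and upstream in both for CCNT1, CDK13 and SUPT6H, and fell on either side for HEXIM1. CDK9 also had a weaker one upstream in each repeat, and CCNT1 a weaker one downstream in repeat 1. At CCNT1 the strongest lay 127 and 182 bp upstream, inside the printed promoter stretch. Between repeats the position of the strongest differed by a median of 103.5 bp, from 12 bp at CDK12 to 190 bp at HEXIM1 and NELFB. The strongest HNRNPU and POLIIS2P start summits of a gene, taking the closest pair of lists, were a median of 12.5 bp apart, with 0 bp at SUPT5H and 152 bp at SUPT6H. Being the smallest distance over all pairs of lists, this is low by its making and cannot be set against the gap between the HNRNPU repeats.

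**Figure D2:**
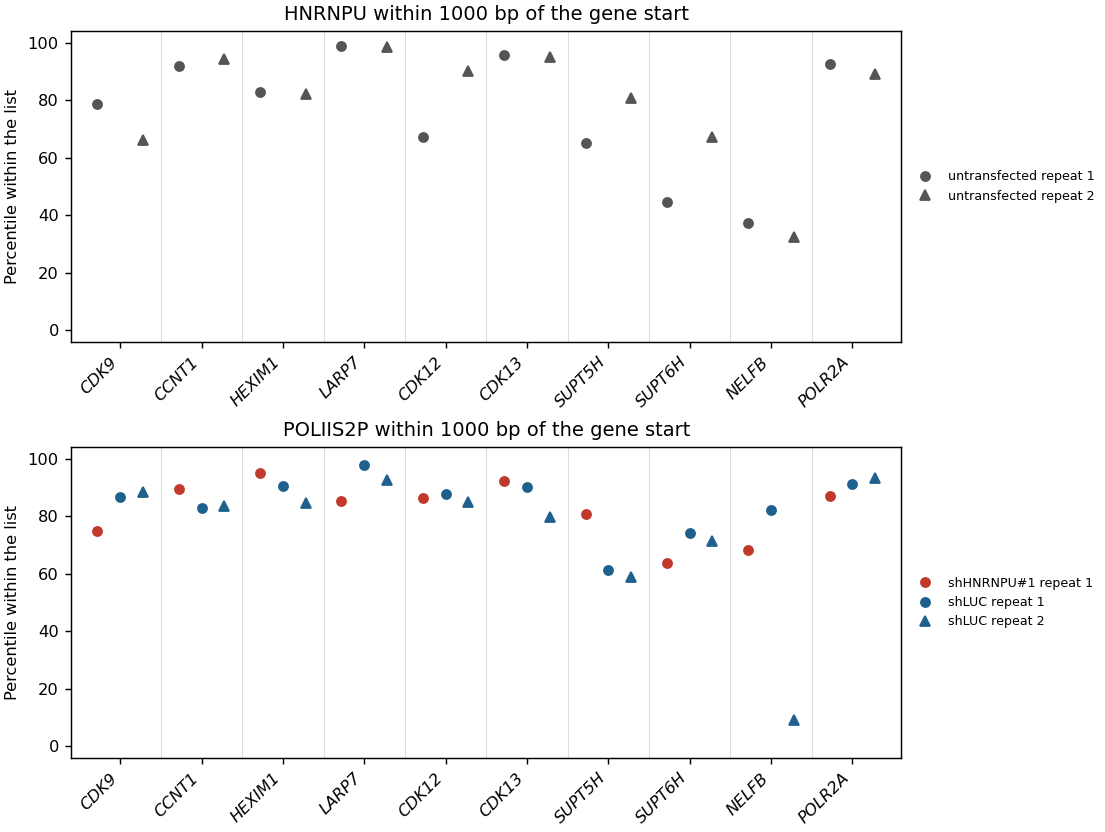
Highest percentile within the list (0 to 100) of HNRNPU summits (upper panel, untransfected cells) and POLIIS2P summits (lower panel, shHNRNPU#1 and shLUC) within 1000 bp of each start, 1 point per library. LARP7 is highest for HNRNPU (98.7 and 98.4) and NELFB lowest (37.4 and 32.4), and the NELFB point of shLUC repeat 2 is far below the others for POLIIS2P (8.99).

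Several starts cannot be assigned to a member alone, since a divergent neighbour begins close by. The starts of SUPT6H and SDF2 were 11 bp apart, those of POLR2A and ZBTB4 117 bp, NELFB and CIMIP2A 205 bp, LARP7 and ZGRF1 234 bp, and CDK13 and the lncRNA CDK13-DT 837 bp. At CDK13 both HNRNPU summits and the POLIIS2P start summits of all 3 lists were closer to the CDK13-DT start, the HNRNPU summits 344 and 236 bp from it. At SUPT6H, by contrast, the strongest POLIIS2P summit of the window was never at the shared start but near PROCA1, a gene beyond its end, at percentile 98.4 in the shHNRNPU#1 library and 99.02 and 98.4 in the shLUC libraries.

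More widely, the strongest summit of a window lay within 1000 bp of the member's own start in 46 of 170 pairs of gene and list (27.1%). The share was 65.0% for HNRNPU, 36.7% for H3K27ac, 20.0% for POLIIS2P and 8.33% for H3K4me1. Shares over all genes are not given, so these are not shown to be particular to the members. KANSL2, whose start is inside the CCNT1 window, had the start nearest to CCNT1's strongest summit in all 3 POLIIS2P lists, and HEXIM2-AS1 the one nearest to HEXIM1's in all 6 H3K27ac lists. For NELFB the strongest H3K27ac summit was nearest the TOR4A start in all 6 lists, and for SUPT5H nearest the RPS16 start in 5 of them. For this reason values at the start are given below beside those of the whole window.

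At LARP7 the 3 POLIIS2P lists shared their strongest summit to the base. It lay at chr4:112646128-112646128 (GRCh38), 8985 bp downstream of the LARP7 start and inside the gene, at percentile 99.8 in the shHNRNPU#1 library and 99.84 and 99.83 in the shLUC libraries, with scores of 109, 158 and 139. This was the highest standing of any member for POLIIS2P, in each of the 3 lists. The same base was a summit in 3 shHNRNPU H3K27ac lists, at 91.7, 95.0 and 96.4, in HNRNPU repeat 2 at 93.2 and in shHNRNPU#2 repeat 2 of H3K4me1 at 60.6. HNRNPU repeat 1 and H3K27ac shLUC repeat 2 had a summit 3 bp away, at 73.5 and 54.9. H3K27ac shLUC repeat 1 and shHNRNPU#2 repeat 2 had no H3K27ac summit in the LARP7 gene body.

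This shared summit was 592 bp outside MIR302CHG, the host transcript of the pluripotency microRNAs, which lies within LARP7 on the opposite strand at chr4:112646720-112650051. The 5 hairpins of miR-302 and miR-367 are at chr4:112647874-112648557. A further HNRNPU summit lay between them and the start of MIR302CHG in both repeats, at positions 112648877 and 112648873 with percentiles 82.3 and 69.8. The POLIIS2P summits at the LARP7 start itself were lower, at 85.4 in the shHNRNPU#1 library and at 97.7 and 92.7 in the shLUC libraries. LARP7 and the microRNA transcript overlap, and without strand their signals cannot be told apart.

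**Figure D3:**
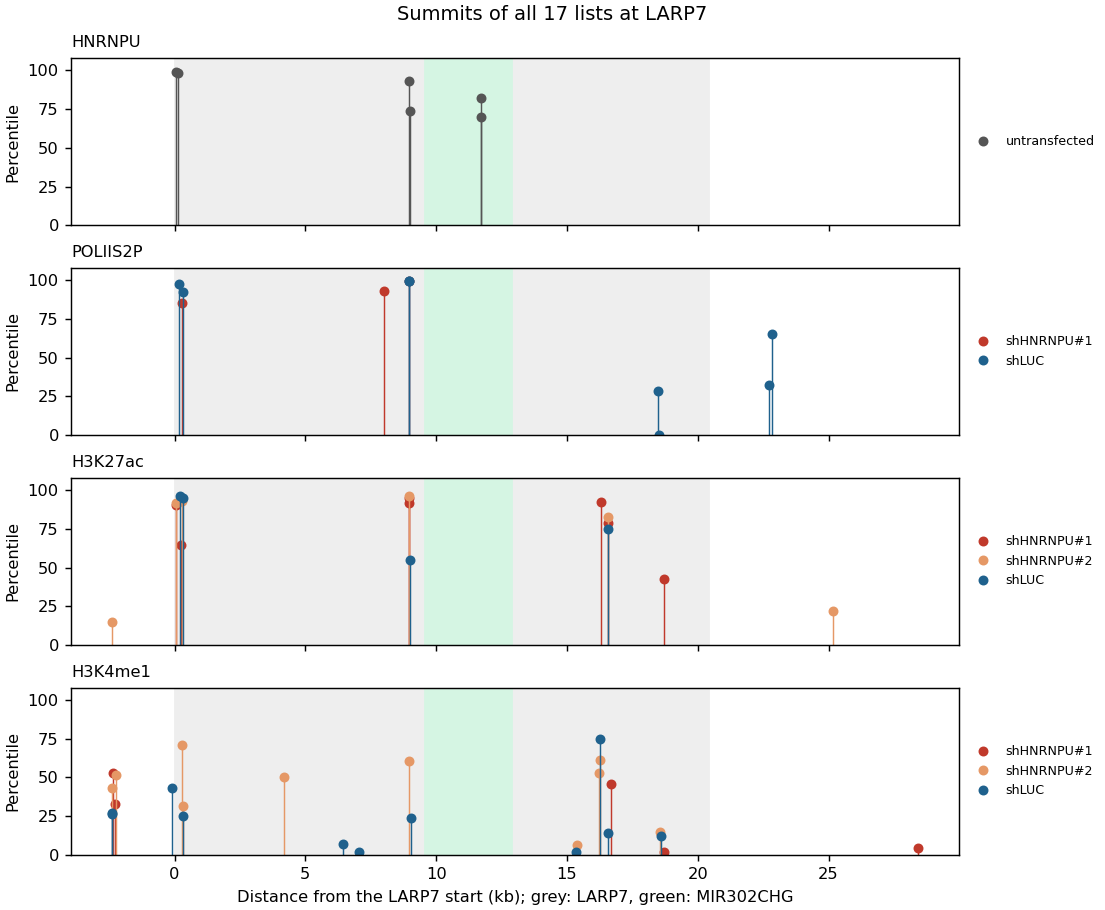
Percentile within the list of each summit from all 17 lists against its distance (kb) from the LARP7 start, 1 panel per antibody, points coloured by shRNA, grey for the gene and green for MIR302CHG. Summits of all 4 antibodies share the base at 8985 bp beside MIR302CHG, where the 3 POLIIS2P points stand at 99.8, 99.84 and 99.83.

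Sharing of a base was uncommon elsewhere. The 911 summits fell on 789 bases, of which 76 were used by 2 or more lists and 19 by 3 or more. Besides the LARP7 base, 3 others were used by 8 lists: 102931 bp downstream of the CDK12 start, 35046 bp downstream of that of SUPT5H and 21667 bp downstream of that of NELFB. All 3 were used by several antibodies. The NELFB base 6995 bp into the gene was the other one used by all 3 POLIIS2P lists, and it was the gene's strongest POLIIS2P summit in 2 of them, at 90.0 in the shHNRNPU#1 library and 93.1 in shLUC repeat 1.

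For POLIIS2P the single shHNRNPU#1 library allows no test. A gene was counted when the shHNRNPU#1 value lay outside the shLUC pair and farther from it than the pair's values from each other. At the start, CCNT1 and SUPT5H were above the pair, where 11.3% of all genes were, and CDK9, LARP7, SUPT6H and POLR2A were below it, where 12.5% were. Over the window, CDK13 and SUPT5H were above (12.6% of genes) and CDK9, LARP7 and POLR2A below (21.3%). The LARP7 window difference from the shLUC mean was only −0.04, near the top of the scale, while that of CDK9 was −3.05 and that of POLR2A −5.19. With 1 library in an arm, these are differences between libraries.

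Among the counted genes SUPT5H stood farthest above its pair at the start. Its POLIIS2P percentile was 80.9 in the shHNRNPU#1 library and 61.2 and 58.8 in the shLUC libraries, a difference of 20.92 from their mean, while the shLUC values were 2.41 apart. Counted over the gene with 2 kb on each side, however, SUPT5H was below its pair. CCNT1 was at 89.6 against 82.7 and 83.6, and HEXIM1 at 95.1 against 90.6 and 84.7. HEXIM1 was above both shLUC values, but the shLUC values were farther apart than it was from the nearer one.

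CDK9 stood farthest below its pair, at 74.8 against 86.8 and 88.4, a difference of −12.82. LARP7 was at 85.4 against 97.7 and 92.7, and SUPT6H at 63.6 against 74.2 and 71.3. POLR2A was at 87.1 against 91.2 and 93.4. At the start CDK9 thus stood below its shLUC pair and CCNT1 above. Over the window CDK9 was also below, but CCNT1 (92.8 against 90.1 and 86.8) was not counted. NELFB gave 68.1 against 82.2 and 8.99, so that its shLUC libraries differed more from each other than from the knockdown. CDK12 (86.2 against 87.6 and 84.8) and CDK13 (92.4 against 90.3 and 79.6) were within or close to the pair.

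Beyond the start, the longest genes carried chains of POLIIS2P summits. CDK13, 149.3 kb long, had 15 body summits in the shHNRNPU#1 library and 22 and 21 in the shLUC libraries, and CDK12, 106.1 kb long, had 7 against 8 and 7. The shHNRNPU#1 list held fewer summits in all (79949 against 87456 and 85517), and the part of that in the CDK13 count was not tested. Per 10 kb of window and list, the POLIIS2P summits numbered 1.28 at CDK13 and 0.74 at CDK12, and 2.27 at NELFB, 2.12 at HEXIM1 and 2.02 at CDK9, whose windows are shorter.

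**Figure D4:**
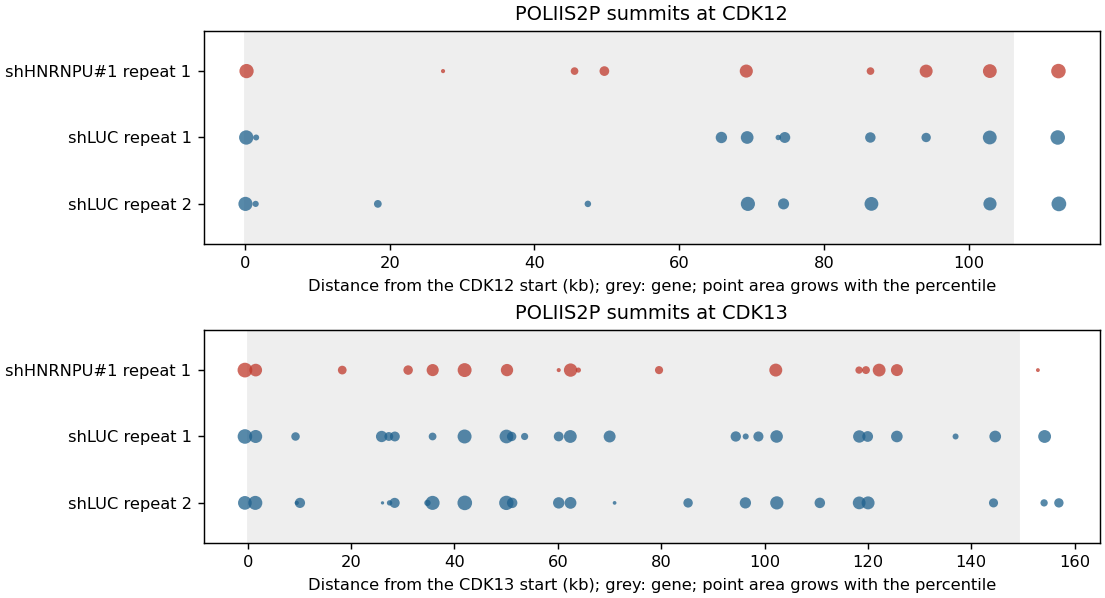
POLIIS2P summits at CDK12 and CDK13 by library against distance (kb) from the start, with the gene in grey and point area growing with the percentile. CDK13 shows 15 body summits in the shHNRNPU#1 library against 22 and 21 in the shLUC libraries, and CDK12 shows 7 against 8 and 7.

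Some of the strongest POLIIS2P summits lay past the gene end. At CDK9, 4.8 kb long, the strongest POLIIS2P summit was 8296 bp downstream of the start in the shHNRNPU#1 library, at percentile 95.2, and 8364 and 8372 bp downstream in the shLUC libraries, at 98.6 and 97.9. At CDK12 it was 112412 bp from the start at 89.6, against 112315 and 112465 bp at 89.4 and 92.4. CDK9 was lower in the shHNRNPU#1 library at this place as it was at the start.

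H3K27ac was present at the start of CCNT1, LARP7, CDK12, CDK13 and SUPT6H in all 6 lists, 5 of 10 members, as for 24.4% of genes. Of these, CDK12 had the strongest mark. Its start percentiles were 97.8, 98.9, 98.3 and 98.3 in the shHNRNPU libraries (shHNRNPU#1 repeats 1 and 2, then shHNRNPU#2 repeats 1 and 2, an order kept below) and 98.8 and 99.68 in the shLUC libraries. NELFB had a start summit in 1 of 6 lists only, shLUC repeat 2, at 44.0.

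At the start the shHNRNPU groups lay entirely below shLUC for LARP7 and CDK13 and above it for no member, against 7.21% of all genes below and 0.461% above. By sample title the direction was the opposite: CCNT1, LARP7, CDK12, CDK13 and SUPT6H were higher with shHNRNPU and no member lower, where 16.1% of genes were higher and 21.8% lower. LARP7 had 64.8, 90.6, 91.7 and 92.9 in the shHNRNPU libraries and 95.9 and 94.8 in the shLUC libraries. Its mean was 85.0 ± 13.5 (SD, n = 4) against 95.3 ± 0.766 (SD, n = 2), a difference of −10.33 (exact permutation test, two-sided, p = 0.4), and shHNRNPU#1 repeat 1 was the outlying low value.

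CDK13 had 95.7, 92.8, 85.7 and 95.0 in the shHNRNPU libraries and 96.7 and 97.1 in the shLUC libraries. Its means were 92.3 ± 4.53 (SD, n = 4) and 96.9 ± 0.334 (SD, n = 2), a difference of −4.61 (exact permutation test, two-sided, p = 0.267). The summits were not at 1 place. In shHNRNPU#2 repeat 1, at 85.7, the CDK13 start was the nearest. In the other lists the start of the lncRNA CDK13-DT was nearer, 51 to 382 bp away. With 4 libraries against 2 there are 15 assignments and the smallest p possible is 0.0667, so that no single gene could pass 0.05. In 9 of 10 members the start mean was lower with shHNRNPU, with a median difference of −14.93. Over the 9705 genes with a start summit in any of these lists, 70.6% were lower and the median difference was −5.83. The H3K27ac lists of shHNRNPU held 40487 to 85142 summits and those of shLUC 62449 and 90914, and the part of this in the lower values was not tested.

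Over the whole window, CDK13 was the only member whose H3K27ac groups did not overlap, lower with shHNRNPU like 10.2% of genes, and none was higher (1.88% of genes). Its strongest summits were those given above for the start, with its own start the nearest in 1 of 6 lists. CDK12, at 97.8 to 98.9 against 98.8 and 99.68, overlapped by 1 library (p = 0.133, exact permutation test, two-sided). POLR2A ranged from 57.4 to 80.2 with shHNRNPU and was 50.1 and 81.4 with shLUC, so its shLUC libraries spanned its knockdown libraries. By sample title, 5 members were higher and 1 lower, where 14.4% of genes were higher and 40.6% lower. CDK13 was then higher with shHNRNPU, by 14.96, so that its direction depends on which name is used.

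**Figure D5:**
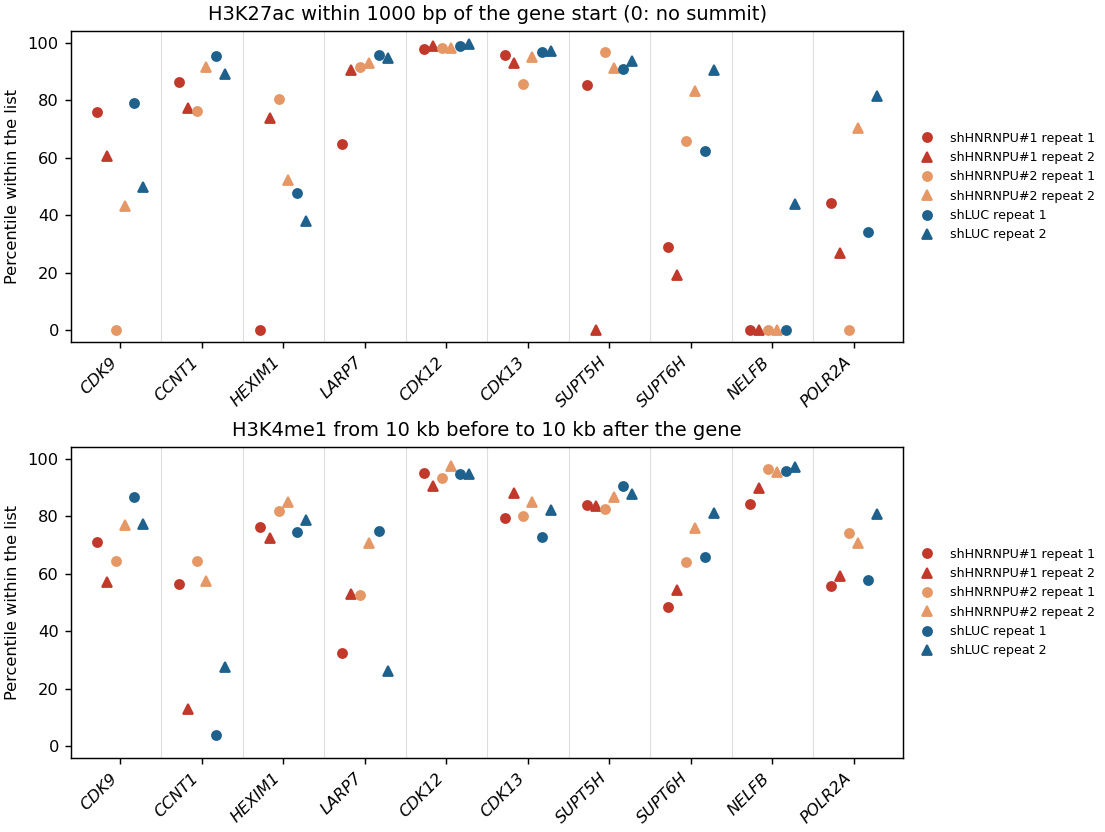
Highest percentile within the list (0 to 100; 0 for no summit) of H3K27ac within 1000 bp of the start (upper panel) and of H3K4me1 over the window (lower panel) for each gene, 1 point per library, with shLUC antibodies by the name in the list. All 6 CDK12 points lie at 97.8 or above for H3K27ac, and the CCNT1 points for H3K4me1 run from 3.89 to 64.4.

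H3K4me1 was found at the start of CDK13 and SUPT5H in all 6 lists, 2 of 10 members, against 37.8% of genes. HEXIM1 and SUPT6H had no H3K4me1 start summit in any list. Its strongest summits at CDK13 lay 28.5 to 42.0 kb into the gene, and those at CDK12 94.1 to 103.0 kb from the start, inside the gene. The CDK12 values of 94.9, 90.5, 93.4 and 97.4 in the shHNRNPU libraries and 94.7 and 94.6 in the shLUC libraries overlapped.

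Over the window, H3K4me1 groups did not overlap for CDK9 and SUPT5H, lower with shHNRNPU in both, and for no member higher, where 7.39% of genes were lower and 6.17% higher. CDK9 had 70.9, 57.3, 64.3 and 76.9 in the shHNRNPU libraries and 86.6 and 77.3 in the shLUC libraries. The difference of its means, 67.4 ± 8.47 (SD, n = 4) and 81.9 ± 6.58 (SD, n = 2), was −14.57 (exact permutation test, two-sided, p = 0.133). In 4 of the 6 lists this summit lay 53 to 67 bp from the start of the lncRNA LOC107987132, not at CDK9. At the CDK9 start the direction turned: the values were 0.0, 57.3, 0.0 and 45.7 in the shHNRNPU libraries and 0.0 in both shLUC libraries, a difference of 25.75, and the groups overlapped.

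SUPT5H had 84.0, 83.6, 82.4 and 86.6 in the shHNRNPU libraries and 90.6 and 87.9 in the shLUC libraries. Its means were 84.2 ± 1.80 (SD, n = 4) and 89.2 ± 1.88 (SD, n = 2), a difference of −5.08 with the smallest p this design allows (exact permutation test, two-sided, p = 0.0667). The strongest summits were not all at the same place. They lay beside RPS16 in both shHNRNPU#1 lists, and 29.89 and 28.75 kb into the gene in the shLUC lists. In shHNRNPU#2 repeat 1 the place was that of shLUC repeat 2, 28752 against 28755 bp from the start. In shHNRNPU#2 repeat 2 it was at −68 bp, beside the start itself. At the start no member's H3K4me1 groups separated, where 3.74% of genes were higher and 3.77% lower. By sample title 8 members were lower there and none higher, where 24.6% of genes were lower and 16.8% higher. By sample title, 1 member was higher and 8 lower over the window, where 36.9% of genes were higher and 21.3% lower.

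A fit with limma over all genes with a summit in all 6 lists, on the logit of the window percentile, gave no member an adjusted p under 0.05 (Benjamini-Hochberg) by the list name, and 8 members for H3K4me1 and 3 for H3K27ac by sample title, where it called 50.9% and 36.5% of all genes fitted. For H3K4me1 it called 0.006% of 16654 genes and for H3K27ac 0.0% of 12287. At an unadjusted p under 0.05 limma held CCNT1 for H3K4me1, with 6.03% of genes, and no member for H3K27ac, with 4.8% of genes. The CCNT1 difference was 1.90 on the logit scale (SE 0.69, limma adjusted p = 0.7). CCNT1 had 56.3, 12.9, 64.4 and 57.5 with shHNRNPU and 3.89 and 27.4 with shLUC, and shHNRNPU#1 repeat 2 was the knockdown library that lay within the shLUC range. In 4 of the 6 lists its strongest H3K4me1 summit was beside KANSL2.

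Taken by position instead of strength, the H3K4me1 summits of the 6 lists formed 109 sites in the member windows when chained at 250 bp, of which 28 (25.7%) were in every list, against 26.3% over all gene windows. A site counted as gained when all 4 shHNRNPU lists and neither shLUC list had it. Gained were 2 sites, at −1738 bp from the POLR2A start and 29353 bp into CDK13 (0.577% of sites over all windows), and none was lost (1.22%). Gained and lost sites together were 1.83% of member sites, against 1.8% over all gene windows. With only summits of score 5 or more, none of 85 sites was gained and 2 were lost (2.35%, against 1.76%). The direction of this small count thus depended on the limit. H3K27ac formed 99 sites with 9 in every list (9.09%, against 8.72%), none gained (0.251%) and none lost (1.81%).

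The other genes of the pathway, 41 named regulators and polymerase subunits, gave 0 higher and 7 lower for H3K27ac over the window, and 0 higher and 6 lower of the 33 with a known start. Over all genes 1.88% were higher and 10.2% lower over the window, and 0.461% and 7.21% at the start. By sample title the list gave 7 higher and 15 lower over the window and 12 higher and 2 lower at the start, so these directions too depend on the name used. The 4 with the largest start difference are given here as a description, with no test, since they were chosen by that difference. SUPT4H1, the partner of SPT5, had start percentiles of 25.8, 0.0, 0.0 and 0.0 with shHNRNPU and 69.9 and 70.7 with shLUC (difference −63.81). POLR2D, a polymerase subunit, had none with shHNRNPU and 65.0 and 48.7 with shLUC (difference −56.87).

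SSU72, a phosphatase of the polymerase tail, had 76.8, 40.7, 97.4 and 96.7 against 97.9 and 99.4, and LEO1, of the PAF1 complex, had 95.0, 70.2, 84.7 and 88.2 against 98.6 and 98.5. SUPT4H1 had no start summit in 3 of the 4 shHNRNPU lists and POLR2D in none of them had one, while SSU72 and LEO1 had one in each. For H3K4me1 the list gave 8 higher and 5 lower over the window and none at the start, where 6.17% and 7.39% of all genes were higher and lower over the window. By sample title it gave 14 higher and 12 lower over the window and 2 higher and 19 lower at the start. HNRNPU had a start summit in both lists at 21 of the 33 genes, against 48.2% of all genes, and POLIIS2P in all 3 lists at 24, against 49.4%. For POLIIS2P, 9 of the 33 lay above the shLUC pair at the start and 6 below it, where 11.3% and 12.5% of all genes did. Over the window 4 of the 41 lay above and 11 below, where 12.6% and 21.3% of all genes did.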

How the data were processed

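CUT&Tag summit lists from 17 libraries of H1 cells were analysed. The submitters' processing notes name cutadapt, Bowtie2, SAMtools, MACS2 and deepTools and the build hg38, and versions, options and control libraries are not given in the sources used here. Each list, as deposited by the authors, gives 1 base per summit and a value laid out like the −log10 p or q value of MACS2, with a lowest value of 1.3 to 2.01. Which of p and q it is was not stated, so it was used for rank only. A further deposited file of HNRNPU intervals over both repeats has a score of 0 throughout, and the authors' way of merging was not stated, so only its positions were used, as an alternative. Read counts are not used here and depth is unknown.

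Each score was turned into a percentile within its list. Windows were the gene with 10 kb on each side (20037 genes) or 1000 bp on each side of the start (15842 genes with a strand), with coordinates from RefSeq (GRCh38). The members and lists were chosen with earlier results of these data known. Named were all members, neighbours whose start was nearest a strongest summit, HNRNPU, and at most 4 pathway genes, those with the largest H3K27ac start difference among genes whose groups did not overlap. Groups of 4 and 2 libraries were compared by overlap and an exact permutation test, and by limma 3.58.1 (R 4.3.3) on logit percentiles over all genes. The scripts were tested on simulated data. Summits were chained into sites at 250 bp. Other work used Python 3.11.15, numpy 2.4.6 and pandas 2.3.3. Alternatives were the sample title, the start, 2 kb flanks, the 20000 strongest summits, a score of 5 or more, each shRNA alone, other chaining distances, each library left out and a replicate block. Repeats with the same number did not deviate together in these percentiles (Pearson r across genes −0.0287 to 0.0275). Ranks within a list do not show a shift of a whole library, so whether the numbers pair libraries is not settled by this. The result of 1 cell type marker is not reported here.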

Additional observations from a re-analysis of the deposited data

Results flagged for a closer look

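Of 20 groups of 4 shHNRNPU libraries examined for a value far from the rest, 1 had one, where chance gives about 5% of groups. These were window percentiles, and start percentiles were not among them. The H3K27ac start values of LARP7 (64.8, 90.6, 91.7 and 92.9) and SUPT5H (85.4, 0.0, 96.8 and 91.3) each hold a low value too. CCNT1 had an H3K4me1 window percentile of 12.9 in shHNRNPU#1 repeat 2, and 56.3, 57.5 and 64.4 in the other shHNRNPU libraries.

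For SUPT5H the H3K27ac window values of the shRNAs lay on opposite sides of both shLUC libraries. They were 87.1 and 75.8 with shHNRNPU#1, 96.8 and 98.4 with shHNRNPU#2, and 94.5 and 95.1 with shLUC. The strongest summit was nearest the SUPT5H start in 1 of 6 lists, shHNRNPU#2 repeat 1, and nearest the RPS16 start in the others. The mean difference from shLUC was −13.32 for shHNRNPU#1 and 2.84 for shHNRNPU#2, and the difference between the shRNAs was not tested.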

How the results depend on the processing

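Counts of members whose groups did not overlap are given with the share of all genes in brackets. For H3K4me1 the count was 2 over the window (13.6%), 9 with the shLUC antibody by sample title (58.2%) and 0 at the start (7.51%). At the start by title, chosen after seeing the data, it was 8 (41.4%). It was 1 with 2 kb flanks (12.5%) and 0 with the 20000 strongest summits (7.6%). With shHNRNPU#1 or shHNRNPU#2 alone it was 4 each (37.8% and 31.4%). For H3K27ac the count was 1 over the window (12.1%), 6 by title (55.0%) and 2 at the start (7.67%). At the start by title, chosen after seeing the data, it was 5 (37.9%). It was 0 with the 20000 strongest summits (9.15%) and 2 with a score of 5 or more (11.0%). With shHNRNPU#1 alone it was 3 (38.0%) and with shHNRNPU#2 alone 5 (28.0%). limma called 0 members for each mark, and 0 with the replicate block. Without 1 library the counts ran from 2 to 6 for H3K4me1 and from 1 to 7 for H3K27ac, and the highest of each came without the shLUC repeat 1 list of that mark, where 34.3% and 36.2% of all genes did not overlap. Without the shLUC repeat 2 list they were 5 and 2 (34.7% and 29.4% of all genes). For H3K27ac they were 2, 3 and 2 without shHNRNPU#1 repeat 1, shHNRNPU#1 repeat 2 and shHNRNPU#2 repeat 1 (15.9%, 16.3% and 19.1%). Sites gained or lost at members numbered 2 for H3K4me1, both gained (1.83% of member sites, against 1.8% over all gene windows). With a score of 5 or more they numbered 2, both lost (2.35%, against 1.76%). By title they numbered 24 (19.4% of member sites, against 19.5% over all gene windows). Chained at 100 bp there was 1 (0.725%, against 1.83%), and 1 with the 20000 strongest summits (12.5%, against 2.53%). Without 1 library they ran from 2 to 13, the highest without the shLUC repeat 1 list (12.7%, against 8.43%). For H3K27ac they numbered 0 (against 2.06% over all gene windows), and 19 by title (16.0%, against 26.7%). There was 1 chained at 500 bp (1.11%, against 2.12%), 2 at 100 bp (1.59%, against 1.81%) and 1 with a score of 5 or more (2.04%, against 2.21%). Without 1 library they ran from 0 to 12, the highest without the shLUC repeat 1 list (12.8%, against 16.4%). Of 220 values of the 20 member differences under the alternatives, 35 had the opposite sign, 13 of the 20 by title among them. Among members whose groups did not overlap, CDK9 H3K4me1 was 25.75 at the start and CDK13 H3K27ac 14.96 by title. The cause was not tested. POLIIS2P counts were 5 over the window (33.9% of all genes), 6 at the start (23.7%) and 7 with 2 kb flanks (31.5%). They were 6 with the 20000 strongest summits (27.1%) and 5 with a score of 5 or more (32.2%). HNRNPU start summits in both repeats were found at 8 members within 500 bp or with a score of 5 or more. They were found at 10 in a wider start window, in the joint intervals and without either repeat. Shares of all genes at these HNRNPU settings are not given.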
